A study of Mus musculus with 16 samples.

Results

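The comparison was between canertinib and no drug in livers that had lost Met. Canertinib is an irreversible inhibitor of the EGFR (ERBB) family of receptor kinases. The 8 arrays labelled MET_KO_canertinib or MET_KO, of 16 in the series, were taken by their labels and paired by the day after partial hepatectomy (0, 2, 7 or 14), with 1 array for each arm at each day. Partial hepatectomy removes part of the liver, and the remainder then grows back. All 16 arrays held liver RNA from mice of the genotype Metff/ff:ERCre+/+ on a 129SV/C57BL/6 background, so the floxed Met alleles and the tamoxifen-inducible Cre were shared by every arm. In MET_KO and MET_KO_canertinib mice, exon 16 of Met had been removed with the inducible system, which the submitters describe as systemic and which is therefore not limited to hepatocytes. MET_KO_canertinib mice in addition ate a diet with canertinib, with a target dose of 80 mg/kg, while MET_KO mice received no canertinib. MET_FLOX and MET_FLOX_canertinib, the arms labelled as floxed without deletion, served here for reference only. The labels give neither sex nor age, and do not say whether an array held 1 animal or a pool. P-values here therefore measure the spread between arrays, which includes each arm's own course over the days.

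MET is the receptor of hepatocyte growth factor, and EGFR is the receptor of epidermal growth factor, amphiregulin and related ligands. Both are receptor tyrosine kinases that signal through the ERK and PI3K pathways, and both are known to drive hepatocytes into the cell cycle after loss of liver mass. The question addressed was what inhibition of the EGFR family adds in a liver that already lacks MET.

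The deposited signals were not on an equal footing in both arms. The median signal of the MET_KO arrays at days 0, 2 and 7 was 156.4 to 176.8, against 244 to 246.3 in MET_KO_canertinib on those days. At day 14 the arrays of both arms had high medians, 246.3 and 265. The MET_FLOX arrays of days 0, 2 and 7 shared the low medians (168.8 to 188.7), and MET_FLOX_canertinib lay between 248 and 251.3. No label names these array sets, and on days 0, 2 and 7 array set and drug cannot be told apart. The ratio of the 3′ to the 5′ Gapdh control probe sets, which rises as RNA breaks down, was 0.765 to 0.869 in MET_KO and 0.95 to 1.35 in MET_KO_canertinib, without overlap. The corresponding actin ratio was 1.36 to 1.88 in MET_KO and 1.59 to 2.02 in MET_KO_canertinib. Signals were therefore quantile-normalised, and day 14 is given separately throughout. All 10 measured hepatocyte markers were above the array median in at least 1 of the 8 arrays. Their summed normalised signal was 311874 to 362914 in MET_KO and 322831 to 375711 in MET_KO_canertinib. Quantile normalisation gives every array the same highest values, so a sum of such abundant genes cannot show whether the arms were alike. The median difference of these markers at day 2 was 0.08 after quantile normalisation. It was 1.14 with signals as deposited and 0.54 with median centring. The part of array set and RNA quality in the results below was not tested beyond the fits named.

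The 2 Met probe sets that passed the filter differed. The one with the higher signal read 1913, 1459, 1854 and 1014 in MET_KO and 1469, 980, 1322 and 1372 in MET_KO_canertinib at days 0, 2, 7 and 14 (difference -0.25 ± 0.20 on the log2 scale, adjusted p = 0.465). Its levels in MET_FLOX, 1041 to 1835, covered the same range. The other Met probe set read 596, 508, 675 and 507 in MET_KO and 462, 83, 309 and 88 in MET_KO_canertinib, without overlap, and was not tested. The flox arms had the same order without overlap, with 567, 581, 652 and 664 in MET_FLOX and 311, 453, 84 and 381 in MET_FLOX_canertinib. Where either Met probe set lies relative to exon 16 could not be settled from the annotation at hand, so these signals check nothing about the deletion. Egfr read 9474, 7174, 6412 and 7948 in MET_KO and 2924, 6872, 6842 and 8638 in MET_KO_canertinib. Only the day 0 pair differed by over 1 log2 unit (-1.69), and the 4-day difference was -0.38 ± 0.30 (adjusted p = 0.444). Hgf, the ligand of MET, differed by -0.49 ± 0.43 (adjusted p = 0.5), and Erbb3, a kinase-impaired partner of EGFR, by 0.17 ± 0.18 (adjusted p = 0.566). Erbb2 was below the signal filter.

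Over the 4 days, 270 of 13577 genes differed between MET_KO_canertinib and MET_KO (1.99%, limma with arm and day as terms over all 16 arrays, Benjamini-Hochberg adjusted p under 0.05). With only the 8 arrays of the comparison in the fit, 1 gene was called, beside 2418 with an unadjusted p under 0.05. Of the 270 genes, 149 (1.1%) were higher with canertinib and 121 (0.891%) were lower. Differences are log2 values of MET_KO_canertinib minus MET_KO with the standard error of the model, and n is 4 arrays an arm. The split depended on scaling: 55.2% of calls were higher after quantile normalisation, 71.0% with signals as deposited and 10.04% with each array centred on its median. The median difference of all genes was 0.06 after quantile normalisation, 0.15 as deposited and -0.26 after median centring. The number of calls rested on the early arrays. Leaving out the MET_KO array of day 0, 2 or 7 left 0, 5 and 4 calls, and leaving out the MET_KO_canertinib array of day 2 left 6. The count of 0 stood beside 2453 genes with an unadjusted p under 0.05.

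Day 14 is the only day on which both arms had high array medians, and it gave little carry-over for the genes called earlier. The control ratios still differed on that day. Gapdh was at 0.811 in MET_KO and 1.13 in MET_KO_canertinib, and actin at 1.36 and 2.02. A fit of days 0, 2 and 7 alone called 1058 genes higher (7.79%) and 766 lower (5.64%). Of the 1058, 551 (52.1%) were also higher at day 14, against 48.7% of all genes tested. A day 14 difference of at least 0.5 in the same direction was found for 20.6% of them, against 22.7% of all genes. Of the 766, 401 (52.3%) were lower at day 14, against 51.3% of all genes, and 28.1% were lower by at least 0.5, against 24.6%. The median difference of the genes called higher was 0.94 on the early days and 0.03 at day 14, and that of the genes called lower was -1.06 and -0.03.

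Across the 13577 genes, which are not independent replicates, the mean difference of days 0, 2 and 7 correlated with that of day 14 at r = 0.04. The same early differences correlated with those of the flox arms on the same days at r = 0.67. The early pairs of the knockout arms correlated with one another at r = 0.43 to 0.48, and with the early flox pairs at r = 0.34 to 0.53. These early pairs share the difference in array medians, in the knockout and in the flox arms.

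**Figure D1:**
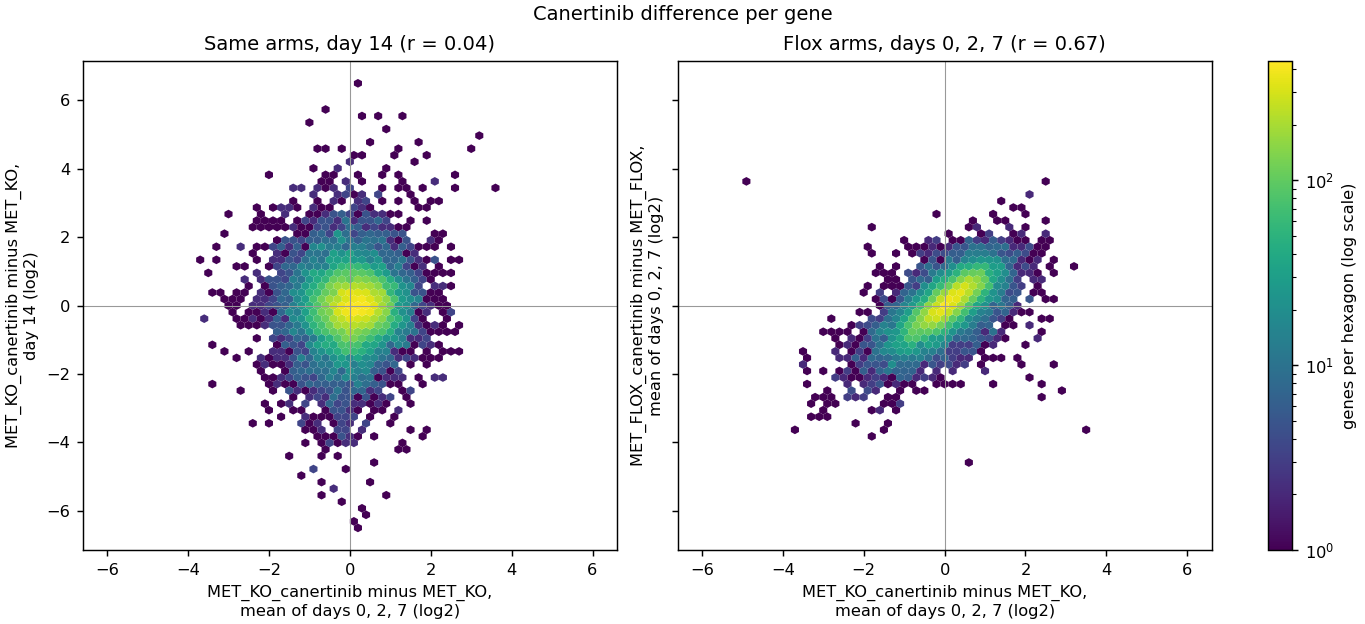
Each hexagon counts genes (colour, log scale) by their mean log2 difference MET_KO_canertinib minus MET_KO over days 0, 2 and 7 (horizontal axis). The vertical axis is the day 14 difference of the same arms (left, r = 0.04) or the difference MET_FLOX_canertinib minus MET_FLOX over days 0, 2 and 7 (right, r = 0.67); the cloud is tilted on the right and upright on the left.

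Several genes of inflammation were higher with canertinib at days 0, 2 and 14, and less so at day 7. The acute phase response is the hepatocyte's output of plasma proteins under interleukin-6 and interleukin-1, with STAT3, C/EBP and NF-kappa-B as its transcription factors. Saa3, Fgl1, Lbp and Itih3 were called higher, 4 of 25 measured acute phase genes beside 1.1% of all genes, and none was called lower. The list's median difference was 0.78, with 22 of 25 members above 0, beside 0.06 for all genes. At day 14 alone the list's median was 1.30, with 15 of 25 members higher by at least 1 log2 unit, beside 9.44% of all genes. At day 7 it was 0.10, with 2 members higher and 2 lower by at least 1 log2 unit.

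Saa3, a serum amyloid A protein made by hepatocytes and macrophages, had the largest rise among the genes selected for size. Its normalised signal was 631, 423, 1594 and 796 in MET_KO and 4731, 10453, 5800 and 25060 in MET_KO_canertinib at days 0, 2, 7 and 14. All 4 arrays with canertinib lay above all 4 without. The difference was 3.56 ± 0.53 (adjusted p = 0.0199), with daily values of 2.88, 4.57, 1.85 and 4.95. The daily differences of Saa3 between the flox arms were 2.09, 1.41, -0.05 and -1.33, and the difference between the genotypes, 3.04 ± 0.76, did not pass (interaction adjusted p = 0.526).

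Fgl1 encodes a fibrinogen-like protein that hepatocytes secrete. It read 7948, 14394, 20058 and 8030 in MET_KO and 20383, 31983, 29801 and 36451 in MET_KO_canertinib, without overlap (1.31 ± 0.24, adjusted p = 0.0242, day 14 difference 2.18). Lbp, which binds bacterial lipopolysaccharide in plasma, read 2868, 3299, 6295 and 6190 without the drug and 9202, 8312, 6256 and 14452 with it. The arms of Lbp met at day 7 and stood apart on the other days (1.05 ± 0.24, adjusted p = 0.0451, day 14 difference 1.22). Itih3, a heavy chain of the inter-alpha-trypsin inhibitors that bind hyaluronan, read 21681, 27894, 31226 and 21064 in MET_KO and 27728, 47620, 46122 and 53579 in MET_KO_canertinib. The day 0 array with canertinib lay within the range of MET_KO (0.76 ± 0.18, adjusted p = 0.0482, day 14 difference 1.35).

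The promoters of Saa3, Itih3 and of Nfkbia, the NF-kappa-B inhibitor described next, are shown because these members rose together; they were chosen after their values were seen. They are RefSeq promoters of build GRCm38.p6, from 250 bases before to 50 after the gene's start, read in the direction of the gene, all on the minus strand (Saa3 chr7:46715627-46715926, Nfkbia chr12:55492598-55492897, Itih3 chr14:30923538-30923837). Capitals mark matches on either strand to a NF-kappa-B consensus (GGG and CC parted by 5 bases of any kind) or to the C/EBP letters TTNNGNAA.
Saa3: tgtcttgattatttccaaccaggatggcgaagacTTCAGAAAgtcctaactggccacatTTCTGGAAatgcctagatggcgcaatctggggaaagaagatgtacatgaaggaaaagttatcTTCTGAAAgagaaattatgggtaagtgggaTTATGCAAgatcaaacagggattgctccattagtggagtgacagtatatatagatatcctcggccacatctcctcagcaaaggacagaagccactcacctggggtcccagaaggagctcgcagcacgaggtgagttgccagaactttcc
Nfkbia: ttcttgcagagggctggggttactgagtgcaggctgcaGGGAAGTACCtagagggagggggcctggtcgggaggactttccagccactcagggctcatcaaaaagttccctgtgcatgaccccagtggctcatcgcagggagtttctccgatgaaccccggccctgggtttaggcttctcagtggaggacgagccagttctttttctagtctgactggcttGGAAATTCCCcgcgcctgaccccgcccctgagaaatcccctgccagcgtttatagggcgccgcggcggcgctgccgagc
Itih3: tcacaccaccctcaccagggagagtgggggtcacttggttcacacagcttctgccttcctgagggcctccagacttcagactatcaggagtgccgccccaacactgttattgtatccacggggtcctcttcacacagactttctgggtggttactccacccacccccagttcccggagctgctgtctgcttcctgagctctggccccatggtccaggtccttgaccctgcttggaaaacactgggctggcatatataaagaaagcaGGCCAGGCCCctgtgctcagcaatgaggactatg
The 4 matches in Saa3 were all to the C/EBP letters, and none overlapped another. Nfkbia held 2 matches to the NF-kappa-B letters and Itih3 held 1, which began 16 bases after the start. Such short letters are common: of 32851 promoters in the table, 50.8% held the NF-kappa-B letters and 40.7% the C/EBP letters. A match is a description of the sequence only.

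Nfkbia encodes the inhibitor that holds NF-kappa-B in the cytoplasm and is itself induced by NF-kappa-B. It was the only called gene among 22 measured genes of IL-6 and NF-kappa-B signalling. It read 5525, 4579, 6247 and 8144 in MET_KO and 11413, 14954, 9969 and 17470 in MET_KO_canertinib. The arms did not overlap (1.13 ± 0.19, adjusted p = 0.0201), the day 14 difference was 1.10, and the 4 other probe sets of the gene lay between 0.64 and 0.97. Of the 22 genes, 21 had a difference above 0 (median 0.52), and at day 14 17 were higher by at least 1 log2 unit (median 1.68), beside 9.44% of all genes. At day 7, 7 of the 22 were above 0 and 15 below (median -0.28). Examples at day 14, chosen after their values were seen, were Socs3, a feedback inhibitor of IL-6 signalling (426 without and 5886 with canertinib), and Stat3 (2932 and 9918). Stat3 was higher with canertinib on every day, but its 4-day difference of 1.01 did not pass (adjusted p = 0.061).

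Markers of neutrophils moved with these genes. All 11 measured neutrophil markers had a difference above 0 (median 1.15), all 11 were also above 0 at day 14 (median 1.57), and all 11 were above the array median in at least 1 of the 8 arrays. Ngp, a granule protein of neutrophil precursors, was the 1 marker called. It read 585, 510, 502 and 1193 in MET_KO and 771, 2104, 933 and 7587 in MET_KO_canertinib (1.48 ± 0.35, adjusted p = 0.0466). Its arms overlapped only through the MET_KO array of day 14. The summed signal of the list was 3792 to 41941 in MET_KO and 35256 to 113053 in MET_KO_canertinib. The drug array was higher on each day (44278 against 41941 at day 7), but the MET_KO array of day 7 lay above the drug array of day 0. Lcn2 and S100a8 were chosen after their values were seen. Much of the sum is Lcn2, which hepatocytes also secrete in the acute phase: it read 537, 27599, 36148 and 4505 without canertinib and 30821, 43357, 38542 and 58790 with it (2.56, adjusted p = 0.123). S100a8, an abundant neutrophil cytosolic protein, read 331, 4731, 438 and 23110 with canertinib and 230, 441, 1113 and 667 without, so it was higher by over 1 log2 unit at days 2 and 14 only. The part of neutrophils in the acute phase values was not tested, and in whole liver more cells of a type and more RNA per cell cannot be told apart.

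Macrophage markers did not move in 1 direction. Their median difference was 0.24 at day 0, 0.73 at day 2, -1.07 at day 7 and 0.85 at day 14, and none of 16 was called. Among 19 measured cytokines and chemokines none was called either, and the median was 0.73 at day 14 and -0.40 at day 7. The direction of the acute phase and neutrophil medians held with signals as deposited and with median centring, except at day 7, where both turned below 0 after median centring.

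**Figure D2:**
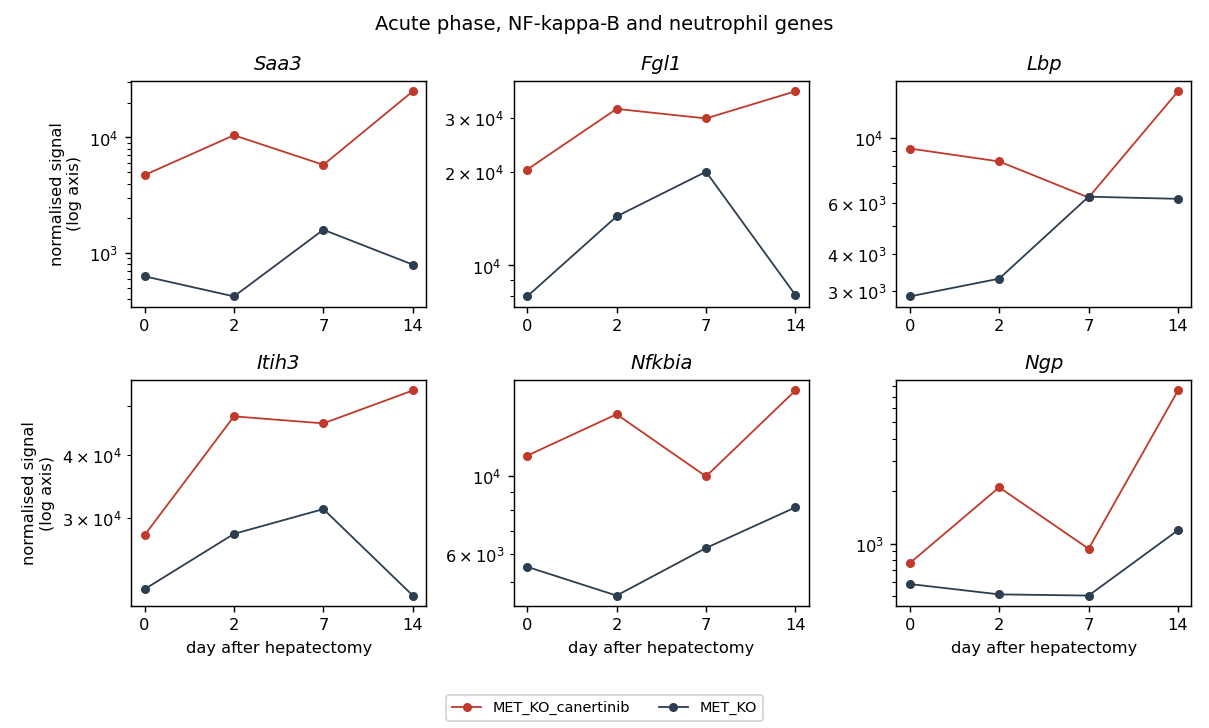
Normalised signal (log axis) of Saa3, Fgl1, Lbp, Itih3, Nfkbia and Ngp by day after hepatectomy; each point is 1 array, red for MET_KO_canertinib and dark blue for MET_KO. The red points lie above the blue ones on every day for all genes except Lbp at day 7, where both arms read about the same (6256 and 6295).

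Cyp17a1, Mmd2, Hsd3b5 and Igfbp2 also differed between the arms. Some genes of steroid metabolism differ between male and female mouse liver under the rhythm of growth hormone. Cyp17a1 encodes the enzyme that makes androgen precursors from progestins and is listed here among genes higher in female mouse liver. It read 612, 743, 482 and 345 in MET_KO and 3478, 4608, 6406 and 8692 in MET_KO_canertinib, without overlap (3.34 ± 0.47, adjusted p = 0.0199). Day 14 had the largest difference, 4.59. In the flox arms the direction was the opposite on the early days: MET_FLOX read 2327, 3115, 1846 and 555 and MET_FLOX_canertinib 232, 628, 555 and 750. The canertinib difference in the knockout minus that in the flox arms was 5.04 ± 0.66 (interaction adjusted p = 0.0204).

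Mmd2, which encodes a membrane protein of the progestin and adipoQ receptor family, had the same crossed pattern. It read 374, 439, 565 and 117 in MET_KO and 3848, 4589, 9489 and 1409 in MET_KO_canertinib (3.52 ± 0.61, adjusted p = 0.0201, day 14 difference 3.42). MET_FLOX read 4889, 4735, 3793 and 783 and MET_FLOX_canertinib 642, 754, 77 and 448. Levels were thus high in the arm with neither deletion nor drug and in the arm with both, and low in the arms with 1 of them, most clearly on days 0, 2 and 7. The interaction was 6.44 ± 0.86 (adjusted p = 0.0204), and in the flox arms alone Mmd2 fell (-2.91, adjusted p = 0.0379). The other probe sets of Mmd2 gave 3.78 and 0.65 for the knockout pair. Mmd2 and Cyp17a1 were the 2 genes called for the interaction (0.0147% of genes), beside 635 genes with an unadjusted p under 0.05. The interaction compares arms that are balanced over the array sets, so adding the array set to the fit leaves its estimates unchanged. Both calls held in that fit, which is therefore no separate check of them. They were lost when a single MET_KO array, any 1 of the MET_FLOX arrays of days 0, 2 and 7, or the MET_FLOX_canertinib array of day 2 was left out (0 calls, with 533 to 644 genes at an unadjusted p under 0.05).

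Hsd3b5, a 3-ketosteroid reductase of male mouse liver, fell the most of all genes selected for size. It read 10805, 1025, 1204 and 7934 in MET_KO and 15, 271, 44 and 15 in MET_KO_canertinib (-5.66 ± 1.06, adjusted p = 0.0254). The arms did not overlap, and days 0 and 14 had differences of -8.44 and -7.99. The readings of 15 are near the bottom of the array's scale, so these differences depend on the constant of 16 added before the log. In the flox arms Hsd3b5 went the other way on each day (4.03, 5.21, 1.69 and 0.74), and the interaction, -8.58 ± 1.498, did not pass (adjusted p = 0.145). Susd4, a complement regulator of the male-biased list, fell as well, from 524 to 853 in MET_KO to 211 to 420 in MET_KO_canertinib, without overlap (-1.07 ± 0.24, adjusted p = 0.0443).

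These 2 were the only genes called lower among 15 measured male-biased genes, beside 0.891% of all genes, and none was called higher. The list's median was -1.06 over the days, with 1 of 15 members above 0. At day 14 all 15 were below 0 and 13 were lower by at least 1 log2 unit, beside 11% of all genes, while at days 2 and 7 the medians were 0.19 and -0.04. Of 12 female-biased genes, Cyp17a1 alone was called higher, and the list's median was 0.26, with 10 members above 0. The Y-linked gene Eif2s3y, chosen after its values were seen, was read in all 8 arrays. It read 1328, 743, 882 and 393 in MET_KO and 430, 331, 411 and 473 in MET_KO_canertinib. MET_FLOX read 833, 1094, 972 and 397 and MET_FLOX_canertinib 289, 228, 438 and 536. In both genotypes its highest values were in the arrays without drug of days 0, 2 and 7, which had the low array medians.

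Igfbp2, which binds insulin-like growth factors in plasma, was the called gene among 18 of the growth hormone and IGF axis. It read 7587, 12894, 6712 and 9101 in MET_KO and 1403, 3370, 2645 and 1804 in MET_KO_canertinib (-2.004 ± 0.38, adjusted p = 0.0281). The arms were apart on every day, with a day 14 difference of -2.32. Between the flox arms the daily differences were -0.42, -0.43, 2.37 and 1.64, and the interaction of -2.79 ± 0.54 did not pass (adjusted p = 0.216).

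Without the day 0, 2 or 7 pair, the genes named here as called lost their calls: 38 of 38 without day 0 or day 2 and 37 of 38 without day 7, where Mmd2 alone passed. Without day 14, 2 of 38 lost theirs, Susd4 and Rdh16. When the fit also held a term for the array set, shared by both genotypes, the estimate for canertinib drew on both genotypes. It mixed their day 14 and early differences and was not the day 14 difference alone. For Mmd2 it was 4.54, against a day 14 difference of 3.42. In that fit 24 genes were called, 6 of them among the 270. Cyp17a1 was among these 6 (5.03 ± 0.46, adjusted p = 0.00083), whereas Saa3 was not (3.32 ± 0.88, adjusted p = 0.122).

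**Figure D3:**
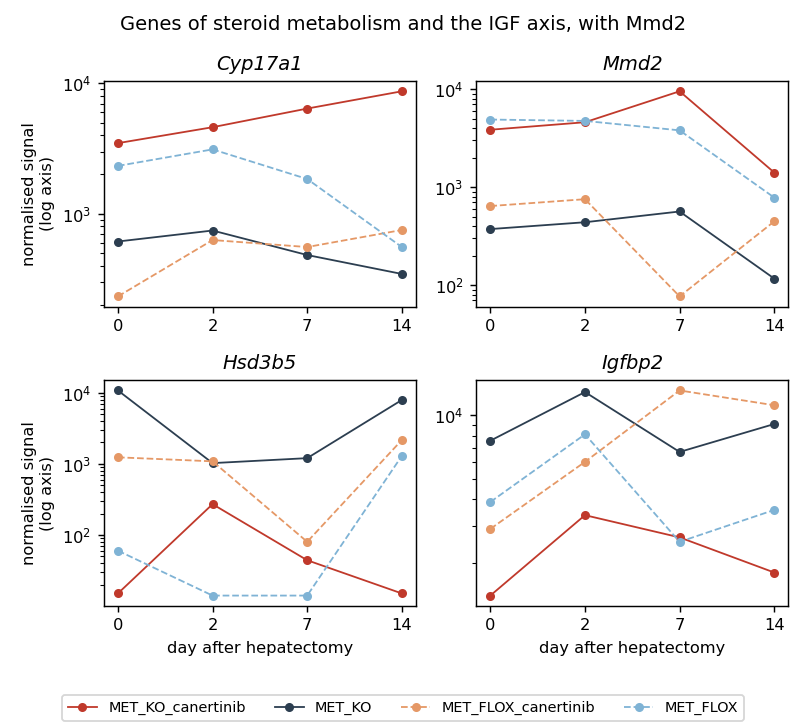
Normalised signal (log axis) of Cyp17a1, Mmd2, Hsd3b5 and Igfbp2 by day in the 4 arms; each point is 1 array, solid lines for the knockout arms and dashed lines for the flox arms. The red points lie above the dark blue ones on every day for Cyp17a1 and Mmd2 and below them for Hsd3b5 and Igfbp2, and the dashed lines run in the other order for Cyp17a1 on days 0, 2 and 7 and for Mmd2 and Hsd3b5 on all days.

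A few enzymes of mitochondria were among the genes that fell. Nadk2, the mitochondrial NAD kinase that makes NADP, read 4287, 3487, 4953 and 2790 in MET_KO and 1984, 1405, 2090 and 1004 in MET_KO_canertinib (-1.28 ± 0.17, adjusted p = 0.0199). The daily differences were even, from -1.11 to -1.46, and the other 3 probe sets gave -0.89 to -1.49. Nadk2 also fell in the flox arms (-1.004, adjusted p = 0.0282), and its call was kept when the array set was added to the fit (-1.496, adjusted p = 0.0478). Sirt3, the mitochondrial NAD-dependent deacetylase, read 1345 to 2328 in MET_KO and 1037 to 1591 in MET_KO_canertinib (-0.71 ± 0.17, adjusted p = 0.0499). These were the 2 called genes of 15 in NAD metabolism, where the median was -0.15.

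Kyat1, a kynurenine aminotransferase, read 1694, 1326, 1713 and 1715 in MET_KO and 683, 695, 900 and 847 in MET_KO_canertinib, without overlap (-1.03 ± 0.21, adjusted p = 0.0327). Asl, the urea cycle enzyme argininosuccinate lyase, went up from 7487, 5399, 7107 and 6557 to 10575, 13554, 15340 and 12248 (0.96 ± 0.20, adjusted p = 0.0346). Kyat1 and Asl were the called genes among 29 of the urea cycle and amino acid breakdown, 1 in each direction. Prodh2, which breaks down hydroxyproline, fell from 1352 to 2922 in MET_KO to 51 to 928 in MET_KO_canertinib (-2.27 ± 0.53, adjusted p = 0.0466), most of all at day 14 (-4.49). Gulo, the last enzyme of vitamin C synthesis, fell by 0.74 ± 0.16 (adjusted p = 0.0401) and Rdh16, a retinol dehydrogenase, by 1.02 ± 0.24 (adjusted p = 0.0472). The daily difference of Rdh16 was -0.13 at day 0 and -1.85 at day 14.

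Ptgr1 encodes prostaglandin reductase, which also reduces reactive aldehydes. It read 510, 1764, 721 and 257 in MET_KO and 194, 24, 53 and 43 in MET_KO_canertinib (-3.11 ± 0.54, adjusted p = 0.0201). Sucnr1, the receptor of extracellular succinate, read 4567, 608, 1234 and 865 in MET_KO and 559, 292, 262 and 63 in MET_KO_canertinib (-2.42 ± 0.50, adjusted p = 0.0327). For both genes all arrays with canertinib lay below all arrays without it.

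Several of the largest differences were in probe sets of low signal or with partners that disagreed. Of the 38 named genes that were called, 15 had another probe set, and for 7 of these at least 1 pointed the other way. Among the rises, Chil1, a chitinase-like protein of inflamed tissue, read 46 to 196 in MET_KO and 234 to 1666 in MET_KO_canertinib (2.17 ± 0.46, adjusted p = 0.0347). Bmper, a secreted regulator of BMP signalling, read 176 to 344 and 424 to 3592 (1.95 ± 0.40, adjusted p = 0.0329), and its day 14 difference was 3.68. Obp2a, a lipocalin, read 301, 1138, 280 and 215 in MET_KO and 12613, 2578, 974 and 543 in MET_KO_canertinib (2.38 ± 0.56, adjusted p = 0.0474). Evpl (2.46), which encodes a protein of the cornified envelope, Pom121l2 (2.17), C1ql2 (2.21), Rmst (2.12) and Akap4 (1.99) rose too, and none of them read over 1097 in any of the 8 arrays. For Dus2, a tRNA dihydrouridine synthase, the difference was 2.31 ± 0.55 (adjusted p = 0.048), and another probe set of it gave -0.45 below the signal filter.

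Among the falls, Atpaf2, an assembly factor of ATP synthase, read 488, 655, 580 and 134 in MET_KO and 34 to 92 in MET_KO_canertinib (-2.53 ± 0.48, adjusted p = 0.0281). Shpk, a sedoheptulose kinase, read 102 to 535 and 25 to 64 (-2.64 ± 0.46, adjusted p = 0.0201). The day 14 array of MET_KO had the lowest value of its arm for both. Pcnt (-2.81), which encodes a centrosome scaffold, Gtf2ird1 (-2.56), Nxpe2 (-2.61) and Fbxl8 (-2.28) also fell. For Atpaf2, Shpk, Pcnt and Nxpe2 the flox arms had falls that passed as well (-2.14, -2.44, -2.58 and -2.50, adjusted p = 0.0312 to 0.0438). In the flox arms 389 genes were called (2.87%), of which 62 were called in the same direction in the knockout arms. These 62 are 23% of the 270 and 15.9% of the 389. Both pairs share the array sets of the early days.

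The cell cycle differed at day 2, the day on which these genes peaked in MET_KO. DNA replication (S phase) genes and G2/M genes are expressed in dividing cells and are low in resting liver. At day 2, 22 of 27 S phase genes and 23 of 28 G2/M genes were lower with canertinib by at least 1 log2 unit, beside 11.4% of all genes. Only 1 and 2 of them were higher by as much, beside 13.4% of all genes. The medians were -1.77 and -2.01 at day 2, and between -0.59 and 0.35 on the other days. With 1 array for each arm at that day there is no test of it. With other scalings the day 2 medians kept their sign.

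Mki67, a marker of cycling cells, read 78, 2474, 393 and 327 in MET_KO and 152, 86, 202 and 139 in MET_KO_canertinib, so that the day 2 peak was not seen with the drug. It was seen in both flox arms, with 1570 in MET_FLOX and 1547 in MET_FLOX_canertinib at day 2. Cdk1, the kinase of mitotic entry, read 3774 at day 2 in MET_KO and 517 in MET_KO_canertinib, against 2833 and 2649 in the flox arms. Top2a, a topoisomerase of dividing cells, read 3257 and 246 at day 2 in the knockout arms and 2009 and 2407 in the flox arms. Mcm5, a subunit of the replicative helicase, read 2803 and 433, and 1857 and 1295. Ccnd1, cyclin D1, which growth factors induce in the first phase of the cycle, read 7707 and 2256, and 5290 and 5923. These genes were chosen after their values were seen, except Rfc3.

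Rfc3, a subunit of the clamp loader of DNA replication, had the smallest p of the S phase list. It read 246, 997, 370 and 228 in MET_KO and 160, 180, 157 and 172 in MET_KO_canertinib. The 4-day difference was -1.12 ± 0.31 (adjusted p = 0.068), as the fit takes a change at 1 day for error. In the flox arms 7 of 27 S phase genes and 0 of 28 G2/M genes were lower by at least 1 log2 unit at day 2, beside 9.83% of all genes, with medians of -0.20 and 0.05. The difference between the genotypes at day 2 was not tested, as each arm had 1 array on that day.

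The 1 cell cycle gene called over the 4 days went up. Cenpa, a histone of centromeres, read 197 to 558 in MET_KO and 700 to 896 in MET_KO_canertinib (1.41 ± 0.28, adjusted p = 0.0301). Another probe set of Cenpa that passed the filter gave -1.99, so the direction of this gene depends on the probe set. None of 17 genes of p53 and CDK inhibitors was called. At day 2 Cdkn1a, which encodes the CDK inhibitor p21 and was chosen after its values were seen, read 1666 in MET_KO and 778 in MET_KO_canertinib, and at day 14 it read 321 and 1967.

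**Figure D4:**
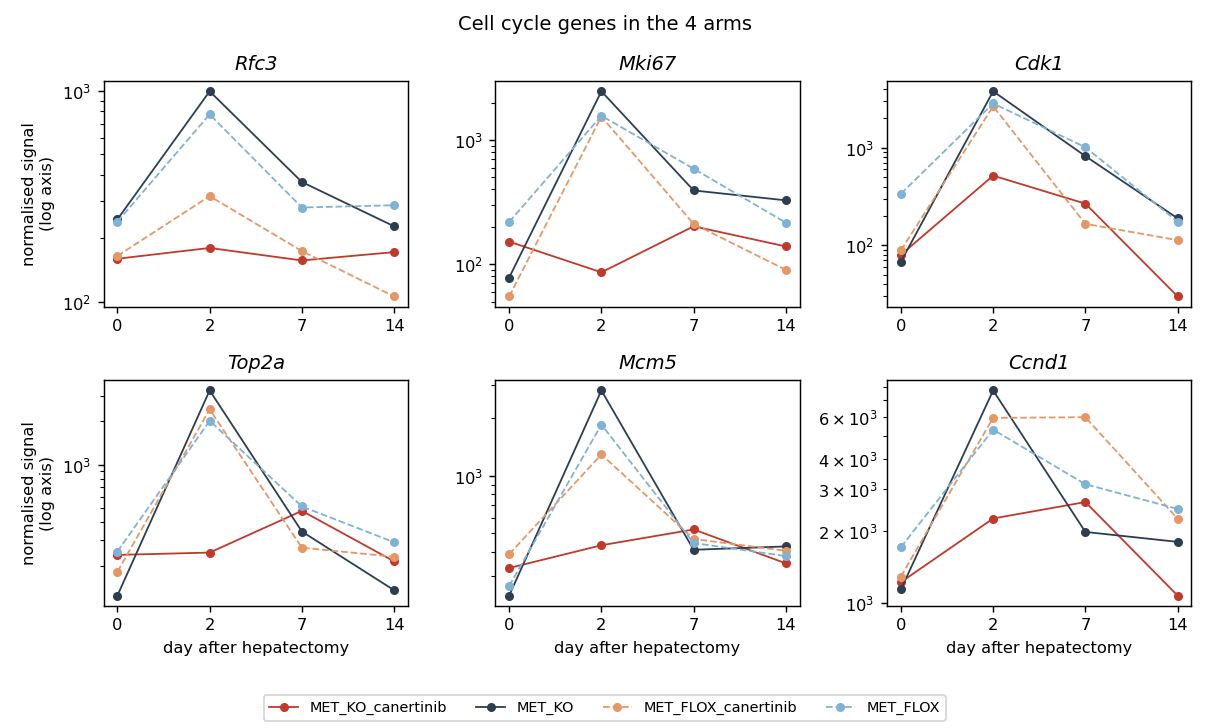
Normalised signal (log axis) of Rfc3, Mki67, Cdk1, Top2a, Mcm5 and Ccnd1 by day in the 4 arms; each point is 1 array. MET_KO (solid dark blue) peaks at day 2 in every panel, and at that day MET_KO_canertinib (solid red) has the lowest point of the 4 arms.

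At day 14 the pair differed in a way that the earlier days did not. The array MET_KO_canertinib at day 14 had the lowest mean correlation with the other arrays of its arm (0.843, against 0.887 to 0.897 for the others), and the array MET_KO at day 14 likewise in its arm (0.852, against 0.88 to 0.906). Everything said of day 14 alone rests on these 2 arrays and has no test. The drug array of day 14 also had the highest summed signal of neutrophil, macrophage (63712) and stellate cell and matrix markers (41525) among the 8 arrays. The part of other cells and of array quality in the day 14 values was not tested.

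Genes of drug and foreign compound metabolism were low in that array. Of 23 measured xenobiotic cytochromes P450 and their regulators, 16 were lower by at least 1 log2 unit and 1 was higher (median -1.89), beside 11% and 9.44% of all genes. On the other days the medians of this list were between -0.20 and 0.09. Cyp2c29, a target of the nuclear receptors CAR and PXR, read 33144, 23397, 23397 and 20534 in MET_KO and 15340, 16360, 19218 and 1261 in MET_KO_canertinib. It was lower on every day, and its 4-day difference did not pass (-1.48 ± 0.53, adjusted p = 0.121). Cyp3a11, chosen after its values were seen, read 48432 to 49266 in MET_KO, 42056, 44451 and 49791 with the drug on the early days and 3319 at day 14. At day 14 it read 48787 in MET_FLOX_canertinib.

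Of 24 genes of the NRF2 and glutathione list, 16 were lower by at least 1 log2 unit at day 14 (median -1.89). By the same measure 3 were higher, beside 11% of all genes lower and 9.44% higher. Gsta3 and Gsta2 encode glutathione transferases and were called in the fit of days 0, 2 and 7. Gsta3 read 16237, 7741, 16326 and 12536 in MET_KO and 9720, 4896, 4912 and 1052 in MET_KO_canertinib (early fit adjusted p = 0.0383, 4-day adjusted p = 0.0533). In the fit that included the array set it was called (-2.93, adjusted p = 0.0478). Gsta2 read 2076, 1266, 4561 and 4304 and 1244, 700, 898 and 120 (early fit adjusted p = 0.0395). Akr1c14, a steroid-reducing aldo-keto reductase, read 5122 to 6355 in MET_KO and 4172, 1732, 2974 and 172 in MET_KO_canertinib (early fit adjusted p = 0.0153), and Nox4, an NADPH oxidase, read 607 to 1183 and 547, 293, 350 and 21 (early fit adjusted p = 0.0405). All 4 genes were lower with the drug on each day and lowest at day 14. They were named for large falls at day 14 among genes called lower on the early days, so their low day 14 values follow from that choice.

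Other hepatocyte functions were low in the day 14 pair too, in which 11% of all genes were lower by at least 1 log2 unit. Lower by at least 1 log2 unit were 12 of 20 genes of fatty acid synthesis (median -1.25), 9 of 16 of bile acid synthesis (median -1.19), 8 of 14 periportal genes (median -1.25), 9 of 17 retinoid genes (median -1.02) and 12 of 29 of the urea cycle and amino acid breakdown (median -0.81). Slc2a2, the hepatocyte glucose transporter, read 9141, 9870, 5886 and 6574 in MET_KO and 7477, 3831, 2870 and 437 in MET_KO_canertinib (-1.64 ± 0.50, adjusted p = 0.0906). Slc10a1, the bile acid uptake transporter, read 15053 and 3751 at day 14 and was called once the array set was included in the fit (-1.77, adjusted p = 0.0206), though not otherwise (adjusted p = 0.0917). Markers common to all hepatocytes changed less: 1 of 10 was lower by at least 1 log2 unit at day 14. With signals as deposited and with median centring it was 2 of 10. Quantile normalisation evens out the highest signals, which limits this reading. Alb, albumin, read 65754 in MET_KO and 57395 in MET_KO_canertinib at day 14 after normalisation. As deposited its order was the reverse, 67901 and 80625.

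In the day 14 pair 9 of 22 genes of ER stress (median 0.87) were higher by at least 1 log2 unit. So were 8 of 20 of cholesterol synthesis (median 0.58), beside 9.44% of all genes. With signals as deposited the ER stress count was 5 of 22, and with median centring it was 4. The inflammatory lists were higher as well. For cholesterol synthesis the medians at days 2 and 7 were -0.65 and -0.62. Igfbp1, a stress-induced IGF binding protein of the liver chosen after its values were seen, read 1105 in MET_KO and 51795 in MET_KO_canertinib at day 14, and 1524 and 19508 at day 2, but 3133 and 507 at day 0. In the flox arms at day 14, 2 of 23 xenobiotic genes, 5 of 24 NRF2 and glutathione genes and 3 of 15 male-biased genes were lower by at least 1 log2 unit, beside 6.67% of all genes. The difference between the genotypes at day 14 was not tested. All day 14 medians named here kept their sign with signals as deposited and with median centring.

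**Figure D5:**
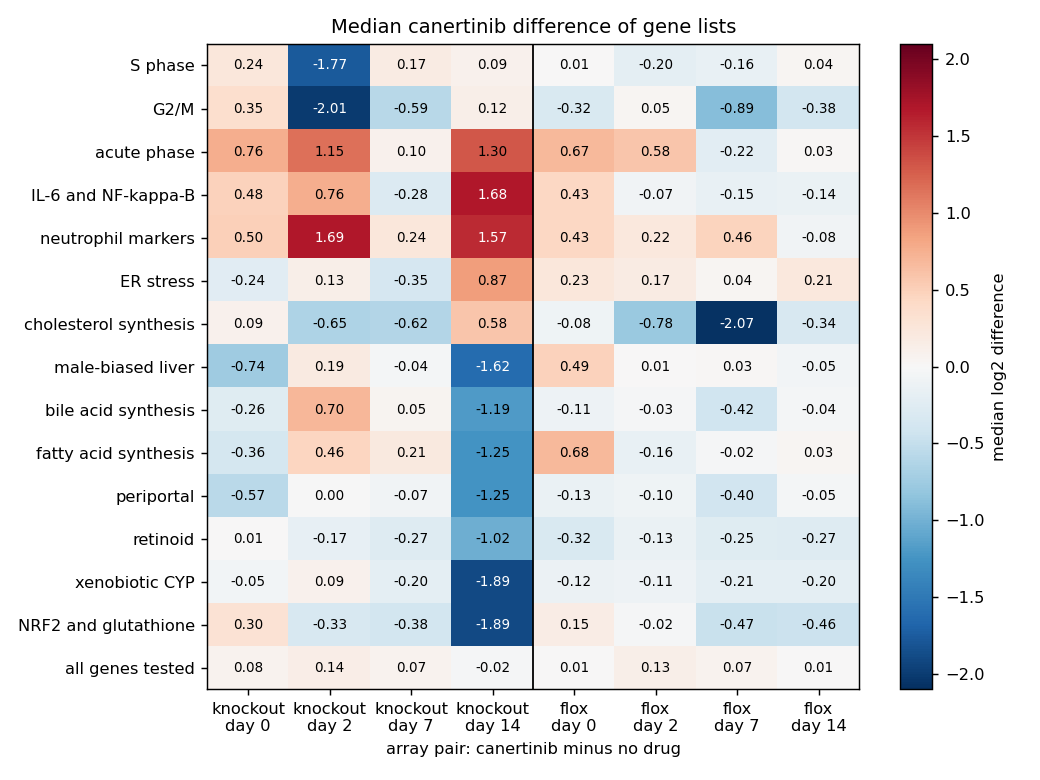
Median log2 difference between canertinib and no drug for 14 gene lists and for all genes tested, by array pair: 4 knockout days on the left and 4 flox days on the right, red for higher with canertinib. S phase and G2/M genes are lowest in the knockout pair of day 2 (-1.77 and -2.01), and xenobiotic and glutathione genes in that of day 14 (-1.89 each).

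Elsewhere few listed genes were called. Wdr43, a factor of ribosome biogenesis, rose by 0.68 ± 0.16 (adjusted p = 0.0467) and was the only one of 24 called on that list. Another Wdr43 probe set that passed the filter gave -0.05, so the rise depends on the probe set. Cd8a, a marker of cytotoxic T cells, read 584 to 1654 in MET_KO and 1550 to 3471 in MET_KO_canertinib (1.21 ± 0.26, adjusted p = 0.0369), and was the 1 called of 10 measured lymphocyte markers, of which 4 were above the array median in any of the 8 arrays. The other probe sets of Cd8a differed by -0.24 to 0.74. In the lists of 23 genes of MET and EGFR ligands, receptors and adaptors and of 20 ERK-responsive genes none was called. Spry1, a feedback inhibitor of receptor kinases, had the smallest p of the latter, with 418 to 677 in MET_KO and 599 to 1007 in MET_KO_canertinib (0.52 ± 0.18, adjusted p = 0.114).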

How the data were processed

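Labelling started from 6 ug of liver total RNA, according to the labels' protocols, and 16 expression arrays were hybridised. The authors deposited a linear signal intensity for each probe set, computed with MAS5 per the submitters' processing notes, which name no version. Per the deposited values, the mean signal after trimming 2% at each end was the same in every array. Detection calls were not used here, and the number of arrays limits the precision.

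Of 45101 probe sets, 64 controls were left out. The platform annotation gave 1 gene for 34945, several for 932 and none for 9160, and the first kind was used. Signals plus 16 were taken to log2 and quantile-normalised over all probe sets but controls. Printed normalised signals have the 16 removed again. Probe sets above the array median in at least 4 of 16 arrays were kept, and each gene was represented by its probe set of highest mean, which gave 13577 genes. The array itself names no genome build, so no gene coordinates are printed beside those of the RefSeq promoters.

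The test was limma's (version 3.58.1, R version 4.3.3), fitted to 16 arrays with terms for arm and for day (9 residual degrees of freedom, trended moderation), two-sided, with Benjamini-Hochberg adjustment over all genes. All adjusted p-values come from these fits. Fold sizes are on the log2(signal + 16) scale, which understates changes of low signals. Days 0, 2 and 7 were also fitted alone over 12 arrays (6 residual degrees of freedom). The same day pairs the arrays of the arms, and day is a term in the fit. The fit was tested on simulated data. Their noise was independent between arrays and held no array set or RNA quality difference, so that test says nothing about the part of either.

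The comparison, the 42 gene lists and the tests were chosen with earlier results of these data known. Genes were named by a rule: the 10 largest rises and falls among called genes with the same sign on all 4 days and a mean log2 value of at least 8 in the higher arm, up to 4 called genes of each list or else the one with the smallest p, the 6 largest rises and falls at day 14 among genes called on the early days with the same sign, genes called for the interaction, and Met, Hgf, Egfr, Erbb2 and Erbb3. Other names are marked as chosen after their values were seen. Alternatives were other scalings, constants, filters, probe set rules, sets of arrays, the array set as a term, and leaving out days and arrays.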

Additional observations from a re-analysis of the deposited data

Results flagged for a closer look

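The canertinib difference in the knockout arms minus that in the flox arms passed the interaction test for Mmd2 (6.44 on the log2 scale) and for Cyp17a1 (5.04). In a check of 73 named genes, 5 had 1 day far from the other 3, where chance gives about 1 in 20. These were Egfr at day 0 (-1.69, with the other days at -0.06 to 0.12), Mmd2 at day 7 (4.03, others 3.31 to 3.42), Nox4 at day 14 (-4.06, others -1.15 to -1.09), Obp2a at day 0 (5.32, others 1.17 to 1.74) and Retn, an adipokine, at day 14 (-0.77, others 1.14 to 1.53). Among array measures, the actin ratio of the MET_KO array of day 0 (1.88, others 1.36 to 1.41) and the median signal of the MET_KO_canertinib array of day 14 (265, others 244 to 246.3) stood apart in the same way.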

How the results depend on the processing

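The 270 calls over 4 days became 1117 with signals as deposited, 2311 with median centring, 168 with no filter, 479 with the mean over all probe sets of a gene, 24 with the array set as a term, 1 with only the 8 arrays of the comparison and 3 without day as a replicate block; they were 1, 0 and 2 without day 0, 2 or 7 and 1824 without day 14 (1735 unadjusted p under 0.05 for the count of 0). The 1824 early calls became 3593 and 4768 under those scalings. The share of early calls with a day 14 difference of at least 0.5 in their direction, 23.7%, became 29.5% with median centring, 37.3% at a size of 0.25 and 10.4% at a size of 1. The 2 interaction calls became 1 with the mean over probe sets, and 0, 0, 1 and 3 without day 0, 2, 7 or 14 (593 and 535 unadjusted for the zeros). Leaving out 1 array gave 0 to 701 calls and 0 to 10 interaction calls.

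Signs turned for Erbb3 as deposited (-0.13), with median centring (-0.54) and without day 2 (-0.0016), Dgat1 with median centring (-0.0724), Cenpa (-0.29) and Egfr (0.10) with the mean over probe sets, Egfr without day 0 (0.0505), and Alb (-0.0318), Egfr (0.19), Met (0.25), Mvk (0.99) and Retn (-0.73) with a term for the array set. The cause of these changes was not tested, except that fewer arrays were fitted where some were left out. The number of arrays, signal over background, array set and RNA quality limit these values. For the named genes and lists, direction and side of the threshold were kept for 661 values, while 100 lost a call and 44 gained one. A further 21 values without a test moved by over the spread between arrays. These counts cover settings that left out neither a day nor a single array, among them the fit of only the MET_KO and MET_KO_canertinib arrays. Settings leaving out a day or an array, plus the fit without day as a replicate block, kept 1056, lost 442 and gained 33. The fit without day as a replicate block used all arrays.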

Other observations

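Outside the lists, the fit with the array set as a term called Slc25a13, the mitochondrial aspartate and glutamate carrier, Ugp2, which makes UDP-glucose for glycogen, Nsun5, a ribosomal RNA methyltransferase, and Gnai2, an inhibitory G protein subunit, along with Cyp17a1 and Nadk2. These are the 6 genes called both with and without that term, named after their values were seen. Slc25a13 read 4165, 5893, 4223 and 5316 in MET_KO and 2978, 2467, 2805 and 1431 in MET_KO_canertinib. Ugp2 read 12298, 7587, 8406 and 11918 and 6971, 4927, 5908 and 4475. Both were lower with canertinib on every day. Gnai2 read 3293, 4667, 3556 and 4138 without the drug and 5365, 7756, 6632 and 8491 with it, without overlap. Nsun5 read 343 to 632 and 54 to 163.

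The summed signal of adipocyte markers overlapped between the arms and was 8172 to 53723 in MET_KO and 4645 to 38285 in MET_KO_canertinib.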
